A study of Mus musculus with 2 samples.

Results

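The cells described here are myeloid cells with S100a8, S100a9, Chil3 or F10 transcripts of the mouse choroid and retinal pigment epithelium (RPE), 68 of 21898 cells. Barcodes with 1000 or more UMIs (counted RNA molecules), 500 or more genes and no more than 20% of UMIs from mitochondrial genes were taken as cells. Members were chosen by measured counts: a cell was a member with at least 10 UMIs of S100a8, S100a9, Chil3 and F10 together and at least 2 of Tyrobp and Ptprc. It could hold at most 2 UMIs of C1qa, C1qb and C1qc and at most 2 of Cdh5, Sox10 and Rpe65. The study held 1 group, wild-type mice of the ICR strain at 8 weeks of age with no treatment, in 2 droplet libraries made with 3' chemistry. Each library pooled choroid-RPE tissue of 1 male and 1 female mouse, dissociated with collagenase A and trypsin. The comparisons were therefore between cell classes within the same libraries, which served as 2 replicates.

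S100a8 and S100a9 encode the subunits of calprotectin, a calcium- and zinc-binding protein that neutrophils store in large amounts. Neutrophils leave the bone marrow as mature, non-dividing cells and are drawn into tissue by chemokines acting on Cxcr2. Classical monocytes carry Ly6c2 and Ccr2 and can give rise to tissue macrophages, while non-classical monocytes patrol vessel walls, and Chil3 (a chitinase-like protein) and F10 (coagulation factor X) are known from monocytes.

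The libraries held 91741168 and 149570817 UMIs, of which 4.90% and 4.11% lay in barcodes with at most 100 UMIs and served as the free RNA. Members were 27 of 8497 cells (0.318%, exact 95% binomial interval 0.210% to 0.462%) in library 1 and 41 of 13401 (0.306%, 0.220% to 0.415%) in library 2. The intervals cover counting error only. The cells of the libraries shared 31 barcodes, and no member was among them. 

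The members fell into separate groups by the genes of the rule itself. The sum of S100a8 and S100a9 reached 10 UMIs in 27 members and the sum of Chil3 and F10 in the other 41, and no member reached 10 by both. Members were divided by their own UMIs of neutrophil genes (Csf3r, Cxcr2, Retnlg, Mmp9, Mmp8, Il1r2, Ltf, Camp, Ngp, Cd177, Hdc) and monocyte genes (Ly6c2, Ccr2, Csf1r, F13a1, Ms4a4c, Ms4a6c), with at least 3 UMIs of 1 kind and 4 times as many as of the other. By this division 12 and 14 cells were neutrophil-like, 12 and 22 were monocyte-like, 3 and 3 were mixed and 0 and 2 had too few of these UMIs. All 26 neutrophil-like cells and 1 mixed cell had entered through S100a8 and S100a9, and the 34 monocyte-like cells, with the 7 others, through Chil3 and F10. The name S100a8-S100a9 thus describes the neutrophil-like cells and 1 mixed cell, while 31 of the 34 monocyte-like cells held no UMI of either gene.

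**Figure D1:**
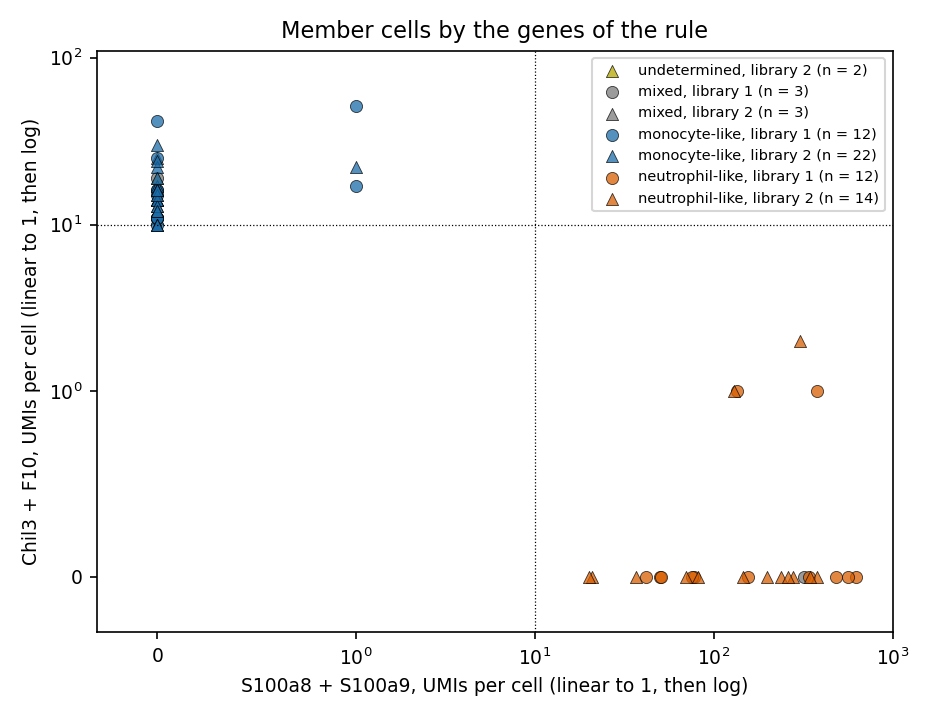
UMIs of S100a8 plus S100a9 (x axis) and of Chil3 plus F10 (y axis) in each of the 68 member cells, coloured by class and shaped by library, with dotted lines at 10 UMIs. The 26 neutrophil-like cells lie at the lower right and the 34 monocyte-like cells at the upper left, and the corner where both sums reach 10 is empty.

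S100a8 (34573 and 28382 CPM in libraries 1 and 2, where CPM is the class's UMIs of the gene scaled to 1000000 UMIs of the class) and S100a9 (56128 and 45082 CPM) were the defining transcripts of the neutrophil-like cells. In the monocyte-like cells S100a8 was at 18.4 and 4.84 CPM and S100a9 had 0 UMIs, with S100a8 UMIs in 2 and 1 cells. In the free RNA S100a8 stood at 7.12 and 22.3 CPM and S100a9 at 8.90 and 31.2 CPM. Fibroblasts, which should lack S100a8, held a UMI of it in 0.308% and 0.310% of cells at a median depth of 9368 and 9625 UMIs per cell. They were chosen by collagen and Dcn UMIs and with 0 UMIs of Tyrobp and Ptprc. This leaves out cells with such myeloid RNA, so the shares can understate carry-over. Every neutrophil-like cell held these UMIs, at medians of 2695.5 and 1883 UMIs per cell. The rule counts them together with Chil3 and F10, so it favours cells that hold them but does not require them. Their level in these cells is therefore no separate finding. Together S100a8 and S100a9 made up 9.07% and 7.35% of all UMIs of the neutrophil-like cells, and per cell 0.900% to 20.3% in library 1 and 0.213% to 22.4% in library 2. The pair's summed UMIs per cell were 42 at the lowest, 145.5 at the median and 623 at the highest in library 1, and 20, 172.5 and 376 in library 2. The lowest share in each library belonged to the deepest neutrophil-like cell, which also carried RNA of another cell type. Of the pair's summed UMIs S100a8 held 38.1% (exact 95% binomial interval 36.4% to 39.9%) in library 1 and 38.6% (36.7% to 40.6%) in library 2. Single cells spread far more widely, from 19.6% to 50.9% in library 1 and from 20% to 92.7% in library 2, and S100a9 was above S100a8 in 11 of 12 and 11 of 14 cells.

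The genes of this pair lie close together on chromosome 3 (GRCm38), S100a8 at chr3:90668978-90670035 on the plus strand and S100a9 at chr3:90692632-90695721 on the minus strand. The 250 bases before their RefSeq start sites (GRCm38.p6, chr3:90668821-90669070 and chr3:90695722-90695971) are shown because these genes were found in the same cells. The S100a8 window reaches past the GENCODE start of the gene, since RefSeq places the start later. Capitals mark matches to TATAAA (the core promoter element), to GAGGAA (a core bound by ETS factors) and to TGCAAT (known as a C/EBP half-site), searched on both strands. The capitals TTCCTC are GAGGAA on the other strand.
S100a8: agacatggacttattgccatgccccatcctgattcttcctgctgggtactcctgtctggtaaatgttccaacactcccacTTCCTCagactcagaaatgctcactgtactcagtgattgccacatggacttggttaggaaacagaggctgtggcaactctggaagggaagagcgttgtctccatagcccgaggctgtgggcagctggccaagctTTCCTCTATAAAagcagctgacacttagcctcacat
S100a9: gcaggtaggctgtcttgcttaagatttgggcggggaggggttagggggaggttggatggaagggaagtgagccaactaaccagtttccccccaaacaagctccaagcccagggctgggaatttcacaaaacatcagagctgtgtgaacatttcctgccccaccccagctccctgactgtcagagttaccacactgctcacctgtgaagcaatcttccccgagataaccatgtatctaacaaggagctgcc
The S100a8 window held 1 TATAAA that began 30 bases before the start and 2 GAGGAA on the minus strand, and the S100a9 window held none of the 3 motifs. Among 32817 promoter windows of this length 12.4% held TATAAA, 23.3% GAGGAA and 7.32% TGCAAT, so a match describes the letters and no binding.

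The summed markers used for the division separated the classes as the division requires, and these values carry no test. Not every marker did so alone. Mmp8 was at 213 and 0 CPM in neutrophil-like and 18.4 and 43.6 CPM in monocyte-like cells, opposite ways in the libraries. Of the few Cd177 UMIs only 1 lay in a neutrophil-like cell. The rest lay in monocyte-like and mixed cells, 5 of them in a mixed cell of library 2. Csf3r, the receptor for granulocyte colony-stimulating factor, was at 1921 and 1409 CPM in neutrophil-like and 73.5 and 38.7 CPM in monocyte-like cells. Cxcr2 stood at 701 and 822 CPM, Hdc, the histamine-forming enzyme, at 1829 and 1291 CPM, and Retnlg at 1098 and 587 CPM in neutrophil-like cells, while Cxcr2 and Retnlg had 0 UMIs in monocyte-like cells. Ly6c2 was at 331 and 319 CPM in monocyte-like and 61.0 and 0 CPM in neutrophil-like cells. A Ly6c2 UMI was found in 21 of 34 monocyte-like cells and in 2 of 26 neutrophil-like cells. It was found in 0% of fibroblasts, which were chosen with 0 UMIs of Tyrobp and Ptprc. Chil3 (1305 and 702 CPM) and F10 (864 and 973 CPM) were high in monocyte-like cells, and Chil3 had no UMI in any neutrophil-like cell. All 34 monocyte-like cells had entered the rule by the sum of Chil3 and F10, so the high level of these genes is no separate finding. Their sum per monocyte-like cell was 10 at the lowest, 15.5 at the median and 51 at the highest in library 1, and 10, 14 and 30 in library 2. The near-identical copies Ly6c1 and Chil4 had 0 UMIs in the members.

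The classes also differed in depth, and the part of this in their differences was not tested. Neutrophil-like cells had medians of 2695.5 and 1883 UMIs and 952.5 and 792 genes, monocyte-like cells 8517 and 8562.5 UMIs and 2171 and 2407 genes. Their median mitochondrial share was 0.199% and 0.253%, against 1.39% and 2.07% in monocyte-like cells. Raising the UMI minimum to 2000 left 10 of 12 neutrophil-like cells in library 1 and 5 of 14 in library 2, and all 34 monocyte-like cells. The neutrophil-like share of members in library 2 was then 15.6%.

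**Figure D2:**
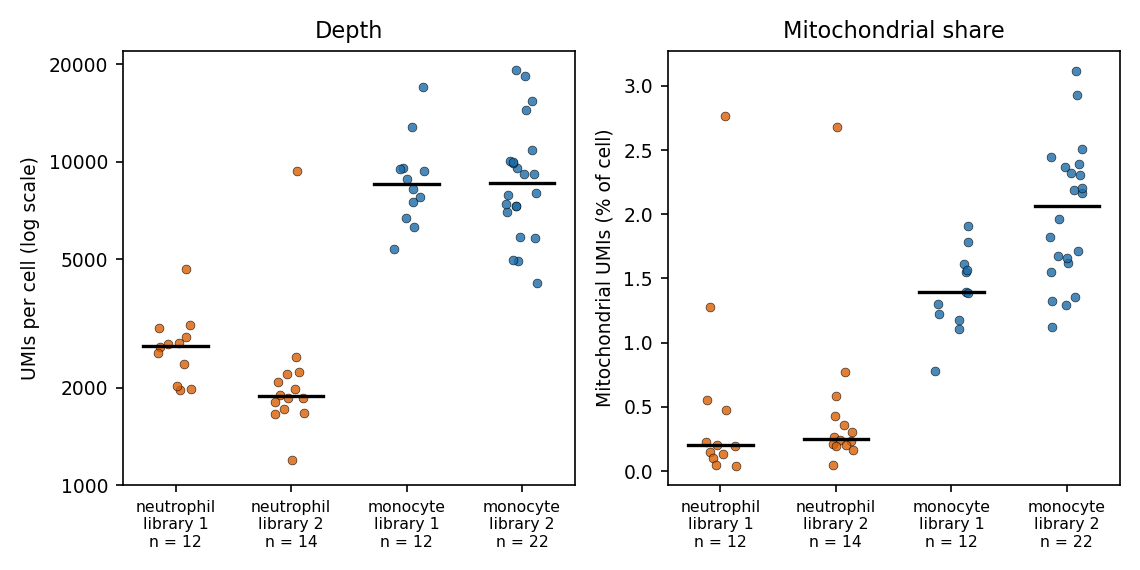
UMIs per cell (left, log scale) and mitochondrial UMIs as a percentage of the cell (right) for neutrophil-like and monocyte-like cells of each library, with a point per cell and a bar at the median. The medians of the neutrophil-like cells (2695.5 and 1883 UMIs) lie below those of the monocyte-like cells (8517 and 8562.5), and the deepest neutrophil-like cell is in library 2 with 9368 UMIs.

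At least 5 UMIs of the markers of another cell type were present in 6 members. Fewer such UMIs were common, and at least 1 fibroblast marker UMI was found in 14 of 26 neutrophil-like, 12 of 34 monocyte-like and 3 of 6 mixed cells. A neutrophil-like cell of library 2 (9368 UMIs, 27.5% of its class's UMIs in that library) held 141 UMIs of 6 fibroblast markers beside 20 of S100a8 and S100a9. A neutrophil-like cell of library 1 (4668 UMIs) held 9. Of the fibroblast markers none was at 0 in neutrophil-like cells, and their summed level was 518 and 4403 CPM, against 27.6 and 203 CPM in monocyte-like cells and 8094 and 7441 CPM in the free RNA. A monocyte-like cell of library 1, with the highest Chil3 and F10 sum of 51, held 35 UMIs of the B cell genes Cd79a, Cd79b and Ms4a1. In library 2 a monocyte-like cell held 98 UMIs of mural markers, another held 36 of these and 32 of fibroblast markers, and a mixed cell held 99 of mural markers. The totals of called genes in each comparison are also given without these 6 cells, a setting chosen after the data were seen, and a list's count is given without them where it moved by more than 1.5 times. Markers of mast cells and basophils (6 genes) and of platelets (3 genes) were at 0 in both classes, and those of eosinophils (4 genes) had at most 1 UMI per class and library.

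The monocyte-like cells were the upper end of a range, not a closed set. The 13 members with 10 to 12 UMIs of the rule's genes and the 21 cells just outside, with 7 to 9, all had 0 UMIs of S100a8 and S100a9 and medians of 11 and 7 UMIs of Chil3 and F10. Their medians of the monocyte genes ran opposite ways in the libraries, 8.5 inside and 15.5 outside in library 1 and 16 inside and 5 outside in library 2. Below the rule's threshold a further 177 cells met the monocyte criteria, 84 of them with a Chil3 or F10 UMI and 32 of them in the dendritic class defined below. Among cells below the threshold with an S100a8 or S100a9 UMI, 2 further cells met the neutrophil criteria. Cells without such a UMI were not counted here, so this number is not set against the 177. With the threshold at 20 UMIs there were 26 neutrophil-like and 7 monocyte-like cells, and at 5 UMIs 27 and 68. The share of neutrophil-like cells among members, 44.4% and 34.1%, depended on this threshold, on the UMI minimum and on the neutrophil genes used. Without Csf3r, Mmp9 and Il1r2 in the division it was 37.0% and 26.8%. There were then 10 and 11 neutrophil-like and 14 and 24 monocyte-like cells, with 2 and 5 that had too few marker UMIs.

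Counts were summed per class and library and fitted with edgeR for genes outside the rule and the division. Calls needed an adjusted p under 0.05 (Benjamini-Hochberg, over all genes tested) and a fold change of 1 or more on the log2 scale in either direction. Since the cells were divided by their own counts, the calls describe how the classes differ and are no independent evidence that they exist. Nothing in the labels says whether the libraries shared a preparation day, and with 2 libraries the p-values rest mainly on spread pooled over 6 immune classes.

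Between neutrophil-like and monocyte-like cells, 185 of 6805 genes were higher in neutrophil-like cells (2.72%) and 527 lower (7.74%). The balance moved with the scaling, the method and the cells left in. Counts were 239 higher and 341 lower of the 6805 genes with DESeq2's size factors in edgeR. DESeq2 itself called 319 higher and 300 lower of the 5217 genes it tested. With TMM scaling but without the 6 cells, 164 were higher and 683 lower of 6635 genes tested. The median log2 fold change of all genes was -0.59, -0.26 with DESeq2's size factors and -1.06 without the 6 cells, so small differences are read against that shift. Lum was the 1 fibroblast marker of 6 called higher in neutrophil-like cells.

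Granule protein genes did not move together. Lcn2, a siderophore-binding protein, had 366 and 1468 CPM in neutrophil-like cells and 0 UMIs in monocyte-like cells, at least 97.5-fold higher by the 3-count floor over the group. Its adjusted p was 0.000106 in edgeR and 0.245 in DESeq2, and 19 and 14 of its 50 UMIs in library 2 lay in single cells, the latter being the cell with fibroblast RNA. Wfdc21, also at 0 in monocyte-like cells, was at 1463 and 499 CPM, at least 102-fold higher (adjusted p = 0.000743 in edgeR and 0.249 in DESeq2). Pglyrp1, a peptidoglycan-binding protein, was higher in neutrophil-like cells at 549 and 558 CPM against 202 and 43.6 CPM (log2 fold change 1.91 ± 0.56 (SE), adjusted p = 0.0375 in edgeR, and 0.124 without the library term). Lyz2, lysozyme, ran the other way at 1890.2 and 881 CPM against 9734 and 13929 CPM (log2 fold change -3.70 ± 0.76 (SE), adjusted p = 0.0247 in edgeR). Of 15 granule genes measured, 6 passed the count filter, and 2 of these had served to choose or divide the cells. The 4 left for testing were all called, 3 higher and 1 lower, so this share does not describe the whole list. Their median log2 ratio of summed CPM was 4.55, against 0.07 over all genes tested. It rests partly on the 3-count floor for Lcn2 and Wfdc21. The azurophil granule genes Mpo, Elane, Prtn3 and Ctsg and the precursor gene Ms4a3 had 0 UMIs in neutrophil-like cells, as did Ltf and Ngp of the secondary granules, and Camp had 2 and 0 UMIs. A count of 0 in the 66871 UMIs of this class allows up to 44.9 CPM. The proliferation genes Mki67, Top2a and Cdk1 had 0 UMIs in both classes.

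Receptors for recruitment stood higher in neutrophil-like cells or were not called. Of 13 tested, 3 were higher and none lower (median log2 ratio 0.84). Selplg, the selectin ligand PSGL-1, was at 579 and 499 CPM against 64.3 and 67.8 CPM (log2 fold change 2.49 ± 0.43 (SE), adjusted p = 0.000834 in edgeR). Fpr1, a formyl peptide receptor, had 11 UMIs in neutrophil-like cells and 1 in monocyte-like cells, a ratio of 51.9 (7.54 to 2233) with its counting interval (adjusted p = 0.0197 in edgeR). Cxcr4, which holds neutrophils in marrow and is known to rise as they age, was at 1372 and 851 CPM against 478 and 271 CPM (log2 fold change 1.08 ± 0.31 (SE), adjusted p = 0.0344 in edgeR). Without the library term the adjusted p of Cxcr4 was 0.270, and without a filter on low counts 0.0589. The activating receptor Trem1 was also higher, at 793 and 734 CPM against 175 and 218 CPM (log2 fold change 1.47 ± 0.37 (SE), adjusted p = 0.0189 in edgeR, 0.0566 without the library term), and Fcgr1, the high-affinity IgG receptor, was at 0 UMIs in neutrophil-like cells and at least 3.04-fold lower (adjusted p = 0.00929 in edgeR).

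The S100 family split between the classes. S100a4 was at 2941 and 2652 CPM in monocyte-like cells and at 0 UMIs in neutrophil-like cells, at least 61.3-fold lower (adjusted p = 2.94e-05 in edgeR). S100a10 was at 0 and 147 CPM against 1103 and 1292 CPM (log2 fold change -4.50 ± 0.61 (SE), adjusted p = 0.000179 in edgeR). S100a11 went the other way, 7744 and 6545 CPM against 1737 and 1152 CPM (log2 fold change 1.84 ± 0.30 (SE), adjusted p = 0.000474 in edgeR), and S100a6 was not called, at 4817 and 3581 CPM against 2215 and 2381 CPM. In both libraries the S100a4 values of the classes lay far apart and those of S100a6 within a factor of 3.

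Of 19 cytokine and chemokine genes 1 was called, Ccl9, with 0 UMIs in neutrophil-like cells and 239 and 571 CPM in monocyte-like cells, at least 10.2-fold lower (adjusted p = 0.00317 in edgeR). Il1b, interleukin-1 beta, had the higher level in neutrophil-like cells in both libraries, 5701 and 7954 CPM against 1039 and 1694 CPM, but did not pass the test (log2 fold change 1.83 ± 1.01 (SE), adjusted p = 0.320 in edgeR). Cxcl2, a neutrophil chemokine, was at 2866 and 8482 CPM in neutrophil-like and 2142 and 4529.9 CPM in monocyte-like cells. By ratio, the libraries lay further apart than the classes. Cybb, the catalytic subunit of the phagocyte NADPH oxidase, was lower in neutrophil-like cells, at 122 and 29.4 CPM against 671 and 1297 CPM (log2 fold change -4.16 ± 0.53 (SE), adjusted p = 4.10e-05 in edgeR), while the cytosolic subunit Ncf1 was higher (log2 fold change 1.63 ± 0.45 (SE), adjusted p = 0.0283 in edgeR, 0.0589 without the library term). The other 4 of 6 oxidase genes were not called, and without the 6 cells Rac2 was called higher too.

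Of 10 myeloid transcription factor genes 2 were lower in neutrophil-like cells and 1 was higher, and without the 6 cells 4 were lower. Irf8 had 1 UMI against 51, a ratio of 10.8 (1.86 to 435) toward the monocyte-like cells (adjusted p = 0.00615 in edgeR and 0.0932 in DESeq2). Klf2 was higher in neutrophil-like cells, at 1189 and 734 CPM against 138 and 145 CPM (log2 fold change 2.21 ± 0.36 (SE), adjusted p = 0.000517 in edgeR). Interferon-induced genes showed no common direction. Isg15 was higher at 2043 and 469.6 CPM against 91.9 and 77.4 CPM (log2 fold change 3.19 ± 0.45 (SE), adjusted p = 0.000154 in edgeR), with the libraries over 4 times apart, and Ifitm3 was lower at 1890.2 and 646 CPM against 5451 and 3388 CPM (log2 fold change -2.38 ± 0.37 (SE), adjusted p = 0.000430 in edgeR). Ifi27l2a, Fos and Pgk1 were also called lower, and each lost its call with DESeq2 (adjusted p = 0.133, 0.0821 and 0.0885), with its size factors in edgeR and without the library term.

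Of 9 clotting and fibrinolysis genes 1 was called. Serpinb2, plasminogen activator inhibitor 2, had 1 UMI in neutrophil-like cells and 202 and 261 CPM in monocyte-like cells, a ratio of 16.1 (2.81 to 645) toward the monocyte-like cells (adjusted p = 0.0297 in edgeR). Its call was lost in DESeq2 (adjusted p = 0.524), with the division at a ratio of 1 (0.0575) and without the 6 cells (0.0889). Ace, the angiotensin-converting enzyme found on non-classical monocytes, had 0 UMIs in neutrophil-like cells and 184 and 106 CPM in monocyte-like cells, at least 2.97-fold lower (adjusted p = 0.0284 in edgeR, 0.0509 with DESeq2's size factors). None of 10 tissue macrophage genes, 5 cell cycle genes or the other 6 of 7 MHC class II genes was called beside H2-DMa, which had 0 UMIs in neutrophil-like cells against 101 and 111 CPM (adjusted p = 0.00221 in edgeR).

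Outside the lists, the largest differences toward neutrophil-like cells among genes with at least 50 UMIs were in G0s2, an inhibitor of the lipase Atgl, with 1738 and 1379 CPM against 9.19 and 9.68 CPM, a ratio of 164 (54.4 to 806) (adjusted p = 6.39e-06 in edgeR). Acod1, the itaconate-forming enzyme, was at 1189 and 1262 CPM against 18.4 and 24.2 CPM (log2 fold change 5.25 ± 0.61 (SE), adjusted p = 8.37e-05 in edgeR). Ltb, Icam1 and Txnip were higher by log2 fold changes of 4.89, 3.33 and 3.29 (adjusted p = 8.50e-05, 0.000419 and 1.76e-05 in edgeR). Spp1, osteopontin, was at 1341 and 323 CPM against 9.19 and 14.5 CPM (adjusted p = 0.0254 in edgeR), and this call was lost when cells were divided at a ratio of 1 (adjusted p = 0.353). Toward monocyte-like cells, Pid1, Vcan (the proteoglycan versican), Ifi30, Got1, Msr1 (a scavenger receptor) and Ifi207 had 0 UMIs in neutrophil-like cells. The bounds were at least 10.5-fold for Pid1, at least 9.47-fold for Vcan, at least 7.14-fold for Msr1 and at least 14.8-fold for Ifi207 (adjusted p = 3.61e-05, 0.00645, 0.000252 and 0.00625 in edgeR). Without the library term the adjusted p of Vcan was 0.0543.

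**Figure D3:**
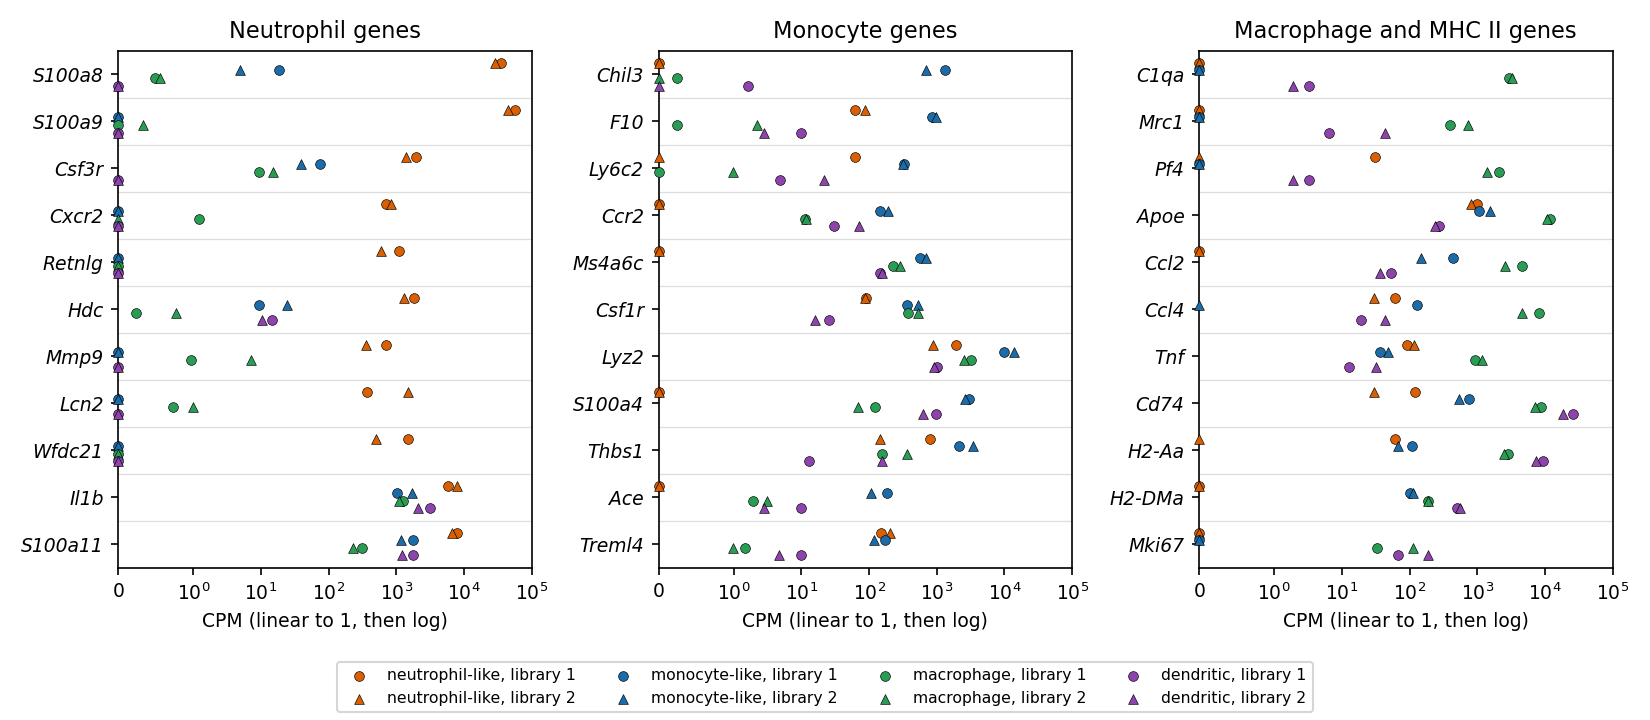
CPM of each gene (linear up to 1, then log) in neutrophil-like cells, monocyte-like cells, macrophages and dendritic cells of library 1 (circles) and library 2 (triangles). S100a8 reaches 34573 and 28382 CPM in the neutrophil-like cells, Chil3 1305 and 702 CPM in the monocyte-like cells, and Mrc1 is at 0 in both member classes.

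The monocyte-like cells carried genes of classical and of non-classical monocytes. Ly6c2 alone was found in 9 cells, Ace, Treml4 or Spn alone in 9, both kinds in 12 and neither in 4 of 34. Ace was at 184 and 106 CPM, Treml4 at 175 and 116 CPM, Spn at 101 and 136 CPM and Cx3cr1, the fractalkine receptor, at 82.7 and 87.1 CPM. Treml4 was not particular to these cells, since neutrophil-like cells held it at 152 and 205 CPM. Of the 5 non-classical genes tested between the member classes, Ace was the 1 called. Thbs1, thrombospondin 1, was at 2114 and 3470.1 CPM in monocyte-like cells, and the clotting cofactor gene F5 at 73.5 and 53.2 CPM.

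Macrophages, for comparison, were the 424 and 893 cells with at least 10 C1qa, C1qb and C1qc UMIs, fewer than 10 of S100a8, S100a9, Chil3 and F10, and the members' other limits. Of 6805 genes, 416 were higher in monocyte-like cells (6.11%) and 622 lower (9.14%), and 413 and 774 of 6635 without the 6 cells. Tissue macrophage genes were lower in 9 of 10 tested (median log2 ratio -3.05, against 0.03 over all genes). The mannose receptor Mrc1, at 0 UMIs against 400.5 and 728 CPM, was at least 65.7-fold lower, and the chemokine Pf4, at 0 against 2131 and 1373 CPM, was at least 169-fold lower (adjusted p = 3.30e-05 and 8.29e-08 in edgeR). In DESeq2 the adjusted p of Mrc1 was 0.111. Apoe, the lipid carrier, was at 1057 and 1558 CPM against 11799 and 10622 CPM (log2 fold change -3.28 ± 0.58 (SE), adjusted p = 0.00625 in edgeR). Apoe stood at 4829.8 and 5646 CPM in the free RNA, and its part in the level of Apoe in the monocyte-like cells was not tested.

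Genes of recruitment and pathogen sensing were higher in the monocyte-like cells than in macrophages, 8 of 13 recruitment receptors and 5 of 11 pattern receptor genes, with 1 and 0 lower (median log2 ratios 1.76 and 1.06). The integrin subunit Itgal was at 322 and 242 CPM against 1.94 and 8.52 CPM (log2 fold change 5.42 ± 0.50 (SE), adjusted p = 4.56e-06 in edgeR). Trem1 was at 175 and 218 CPM against 1.70 and 2.77 CPM (log2 fold change 6.17 ± 0.41 (SE), adjusted p = 1.22e-07 in edgeR), and the lectin receptor Clec4e at 956 and 711 CPM against 153 and 133 CPM (log2 fold change 2.31 ± 0.42 (SE), adjusted p = 0.00251 in edgeR). Cx3cr1 was the receptor that was lower, at 82.7 and 87.1 CPM against 184 and 221 CPM (log2 fold change -1.55 ± 0.47 (SE), adjusted p = 0.0417 in edgeR), a call lost in DESeq2 (adjusted p = 0.142) and without the library term (0.107). Of the other genes of non-classical monocytes Spn, Ace and Treml4 were higher. Macrophages held 8 and 28 Ace UMIs among 4124895 and 9037882 UMIs of the class, and Treml4 at 1.45 and 0.996 CPM (log2 fold changes 5.38 and 6.57, adjusted p = 4.27e-05 and 2.59e-06 in edgeR).

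Of 19 cytokine and chemokine genes 6 were lower in the monocyte-like cells (Tnf, Ccl3, Ccl4, Ccl7, Il10 and Ptgs2) and 3 higher (Ccl6, Ccl9 and Vegfa, median log2 ratio of the 19 -1.58). Tnf was at 36.8 and 48.4 CPM against 916 and 1181 CPM (log2 fold change -4.87 ± 0.37 (SE), adjusted p = 1.57e-07 in edgeR). Ccl4 was at 129 and 0 CPM against 8169 and 4592 CPM (log2 fold change -7.20 ± 1.39 (SE), adjusted p = 0.0244 in edgeR, 0.0584 without a filter on low counts). Ccl6 was among the 3 that were higher, at 726 and 581 CPM against 62.1 and 48.2 CPM (log2 fold change 3.35 ± 0.35 (SE), adjusted p = 4.56e-06 in edgeR). Ccl2, which attracts monocytes, was at 441 and 145 CPM against 4567 and 2554 CPM and was not called (adjusted p = 0.166 in edgeR). Of the immediate early and stress genes, which tissue digestion is known to raise, 4 of 11 were lower and none higher, among them Atf3 at 138 and 402 CPM against 1377 and 1528 CPM (log2 fold change -2.72 ± 0.48 (SE), adjusted p = 0.00244 in edgeR).

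S100a4 (123 and 69.2 CPM in macrophages) and the antiprotease gene Slpi (1765 and 1408 CPM against 0 and 1.99 CPM) were higher in the monocyte-like cells (log2 fold change 4.68 ± 0.46 (SE), adjusted p = 3.44e-05 for S100a4 in edgeR, and adjusted p = 0.0417 for Slpi). Without a filter on low counts the adjusted p of Slpi was 0.0947. Plac8 was at 3208 and 2367 CPM, against 62 and 126 UMIs among the 4124895 and 9037882 UMIs of the macrophages (log2 fold change 7.34 ± 0.44 (SE), adjusted p = 1.27e-08 in edgeR). Haptoglobin, Hp, was at 248 and 334 CPM against 0 and 1.99 CPM (log2 fold change 7.68 ± 0.85 (SE), adjusted p = 0.000446 in edgeR). Serpinb2 was at 202 and 261 CPM against 3.88 and 0.996 CPM (log2 fold change 6.59 ± 0.66 (SE), adjusted p = 3.30e-05 in edgeR, 0.228 in DESeq2), while Plau, the urokinase that it inhibits, was at 0 and 4.84 CPM against 489.7 and 748 CPM, with 1 UMI in the monocyte-like cells and a ratio of 210.3 (37.7 to 8307) toward macrophages (adjusted p = 4.67e-07 in edgeR). Hif1a and the glycolytic genes Pgk1 and Ldha were higher, by log2 fold changes of 1.54, 1.66 and 1.07 (adjusted p = 0.00105, 0.000986 and 0.0261 in edgeR), and Hk2 and Pfkfb3 of the same list were lower. Without the library term the calls of Ldha and Pfkfb3 were lost (adjusted p = 0.101 and 0.0942), and without the 6 cells the change of Ldha was 0.96, under the size needed.

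Dendritic cells were the 49 and 84 cells with at least 3 UMIs of dendritic genes (Flt3, Zbtb46, Xcr1, Clec9a, Cd209a, Ccr7, Fscn1) and at least 10 of H2-Aa, H2-Ab1 and Cd74, and at most 1 of the B cell genes or of the T cell genes. They met the members' other limits but held fewer than 10 UMIs of S100a8, S100a9, Chil3 and F10. Of 6788 genes, 348 were higher in monocyte-like cells (5.13%) and 435 lower (6.41%), and 384 and 550 of 6618 without the 6 cells. Pattern receptor genes were higher in 8 of 11 and lower in none (median log2 ratio 3.72 against 0.26 over all genes), and recruitment receptors in 9 of 13, with Selplg lower. Clec4e was at 9.72 and 17.0 CPM in dendritic cells (log2 fold change 5.44 ± 0.53 (SE), adjusted p = 3.20e-05 in edgeR), and the complement C5a receptor C5ar1 at 257 and 169 CPM against 8.10 and 2.83 CPM (log2 fold change 4.94 ± 0.53 (SE), adjusted p = 1.60e-05 in edgeR). Irf8, a factor of dendritic development, was lower at 175 and 155 CPM against 224 and 401 CPM (log2 fold change -1.36 ± 0.35 (SE), adjusted p = 0.0172 in edgeR, 0.0612 without the library term). Serpinb2 and the histidine lyase gene Hal had 0 UMIs in dendritic cells and were at least 135-fold and at least 213-fold higher (adjusted p = 0.000139 and 2.46e-06 in edgeR). In DESeq2 the adjusted p of Serpinb2 was 0.0951.

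Genes of antigen presentation were low in the monocyte-like cells. Cd74, the invariant chain, was at 754 and 547 CPM in monocyte-like cells, 8773 and 7129 CPM in macrophages and 25788 and 18470.4 CPM in dendritic cells, with 925 and 750.4 CPM in the free RNA. The monocyte-like values lay below the free RNA in both libraries and far below the values of the other classes. The difference from macrophages was not called for Cd74 (adjusted p = 0.0744 in edgeR) but was for H2-Aa, at 110.3 and 67.8 CPM against 2853 and 2527 CPM (log2 fold change -5.21 ± 1.23 (SE), adjusted p = 0.0451 in edgeR, 0.115 without a filter on low counts). In all, 4 of 7 MHC class II genes were lower than in macrophages (median log2 ratio -3.63). Against dendritic cells, whose choice used this pathway, all 4 genes left for testing were lower, among them H2-DMa at 101 and 111 CPM against 507 and 561 CPM (log2 fold change -2.76 ± 0.32 (SE), adjusted p = 3.20e-05 in edgeR). Mki67 and Top2a, with 0 UMIs in monocyte-like cells, were lower than in both classes, for Mki67 at least 9.20-fold against macrophages and at least 14.9-fold against dendritic cells (adjusted p = 0.00335 and 0.000794 in edgeR).

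**Figure D4:**
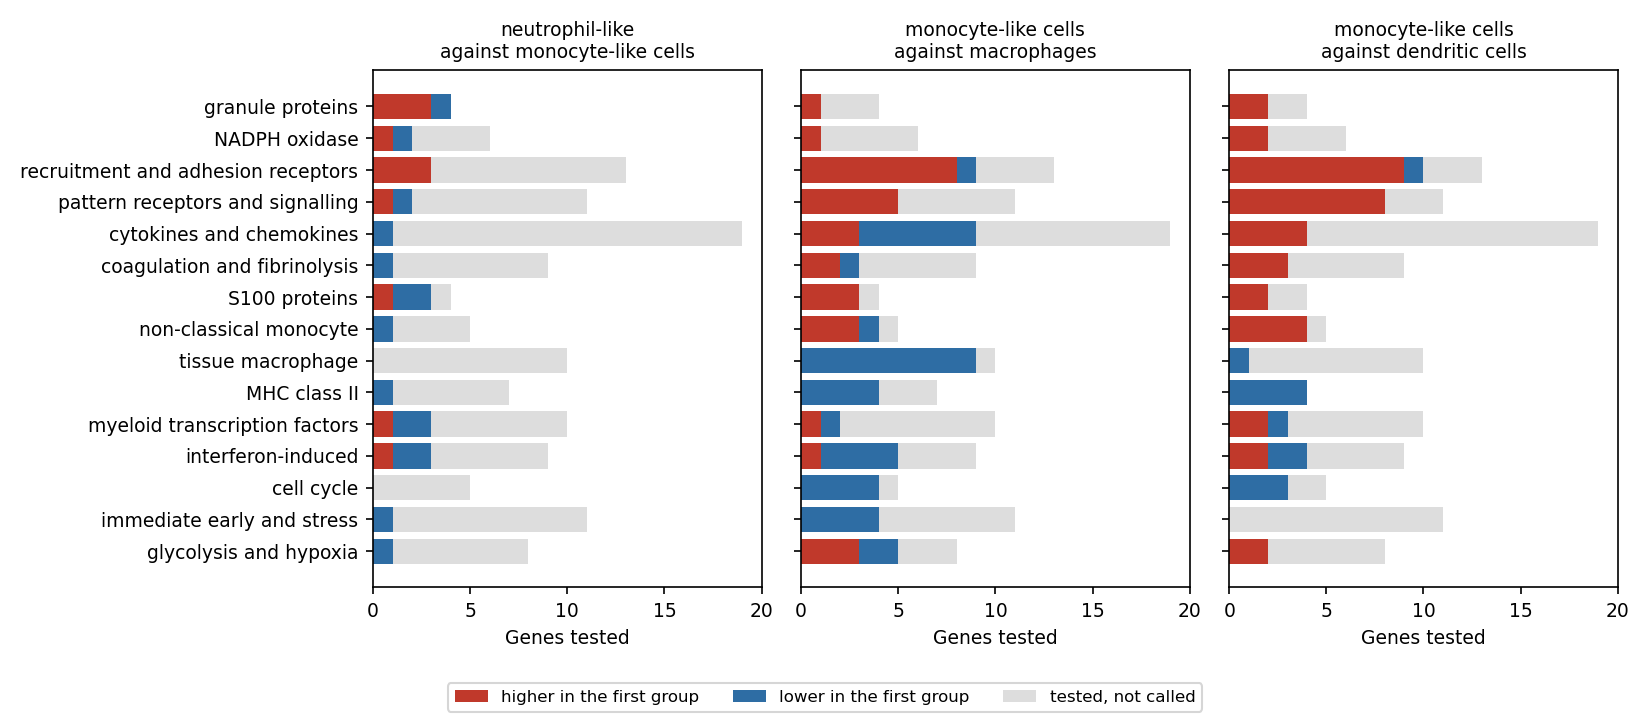
Number of tested genes of each list that were higher (red) or lower (blue) in the first group, or tested and not called (grey), in the 3 comparisons. Tissue macrophage genes are lower in 9 of 10 against macrophages, and pattern receptor genes are higher in 8 of 11 against dendritic cells.

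In 5 of the 6 mixed cells the sum of Chil3 and F10 had passed the threshold, with 11 to 25 UMIs, 5 to 17 monocyte and 2 to 7 neutrophil UMIs, and Lyz2 UMIs of 32 to 77. The remaining cell, in library 1, held 318 UMIs of S100a8 and S100a9, 26 of Lcn2, 6 of Hdc, 2 of Ly6c2 and 1 of Csf1r. The 2 cells with too few marker UMIs had 11 and 19 UMIs of Chil3 and F10 and 56 and 38 of Lyz2.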

How the data were processed

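Single cells of 2 libraries (10x 3' v3.1, per the labels' protocols) were analysed from the deposited matrices of UMI counts, which the authors made with Cell Ranger. Its version is 4 per the file headers, while the submitters' processing notes name 2.1.1, and mm10 as the genome. The deposited gene and barcode lists are names with no measurement (other). The members, gene lists and division were chosen with earlier results of these data known. Scrublet (scanpy 1.11.5, Python 3.11.15) called 214 and 706 cells doublets, 3 of them members, and they were kept. Counts were summed per library for 6 immune classes that each had 10 or more cells per library, and edgeR 4.0.16 was used for the fit (with limma 3.58.1 in R 4.3.3): TMM scaling, filterByExpr, quasi-likelihood and library as a term, since each library's classes came from the same pool. The fit held 6829 genes and 12 sums, with 5 residual degrees of freedom and a common biological coefficient of variation of 0.235. Ratios of counts and CPM use plain UMI totals. A class at 0 was given 3 UMIs for bounds, and 95% intervals are exact and cover counting error. A list's median takes log2 ratios of summed CPM, with classes at 0 set to 3 UMIs and genes with at most 3 in both left out. Named genes were those of the rule and the division, the 3 genes of each list with most UMIs in members, list genes called between neutrophil-like and monocyte-like cells, and the 8 largest changes each way with at least 50 UMIs and the same direction in both libraries. Other genes named, such as Itgal, Tnf, Ccl4, Ccl6, Atf3, C5ar1, F5, Plau, Ldha, H2-Aa, Ccl2, Cx3cr1, Hk2, Pfkfb3, Top2a and Lum, were chosen from the lists after their values were seen. Gene positions are from GENCODE M21 (GRCm38), matched for 32235 of 32285 IDs. Some list genes are not reported here. The tests were checked on simulated data. Alternatives were DESeq2 1.42.0, its size factors, no count filter, no library term, other cell limits and divisions, and leaving out doublets or a library.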

Additional observations from a re-analysis of the deposited data

How the results depend on the processing

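No gene that was both named in the text and called turned its direction under the alternatives run. Genes not called, and those of the rule and the division, were not judged in this way. Among these, Mmp8 and Treml4 ran opposite ways in the libraries between neutrophil-like and monocyte-like cells. Among all called genes, 2 turned sign without doublets (monocyte-like cells against macrophages), and 2, 2 and 1 did in the 3 comparisons without the 6 cells that held other cell types' RNA. The 68 members became 110 with at least 5 UMIs of the rule's genes and 35 with at least 20, and the monocyte-like cells 68 and 7. Neutrophil-like cells fell to 15 (10 and 5) with a UMI minimum of 2000. Between neutrophil-like and monocyte-like cells, DESeq2 called 319 genes higher and 300 lower of 5217 tested. Its size factors in edgeR left 341 lower of 6805, where the main counts were 185 and 527 of 6805. Without the library term (no replicate block), the counts were 146 and 387, then 294 and 438 against macrophages and 256 and 280 against dendritic cells. Leaving out a library gave member shares of 0.306% to 0.318% and neutrophil-like shares of 34.1% to 44.4%, and values with no test for the genes. The test at 20 UMIs was not run, since it left 3 and 4 monocyte-like cells. Depth limits the neutrophil-like class most, whose sums held 32800 and 34071 UMIs, so a gene at 0 there is bounded at 3 UMIs only.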

Other observations

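Each library pooled a male and a female mouse, and transcripts of both sexes were found among the members. In library 1, Xist without a Y-linked UMI was found in 1 neutrophil-like and 3 monocyte-like cells, and Y-linked UMIs without Xist in 3 and 4. In library 2, the numbers were 1 and 7 cells with Xist and 2 and 9 with Y-linked UMIs. A neutrophil-like cell of library 1 held both, and 18 of 26 neutrophil-like cells held neither.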
